A study of Mus musculus with 22 samples.

Results

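The transient receptor potential (TRP) channels and the polycystins were followed in single cultured mouse astrocytes whose calcium response to ethanol (EtOH) had been recorded. The 9 genes were chosen by symbol: Trpc1, Trpc6, Trpv2, Trpv4, Trpm3, Trpm4, Trpm7, Pkd1 and Pkd2, out of 23453 gene symbols in the count table. Each of the 22 libraries held the RNA of 1 astrocyte, grown in primary culture from the cortex of newborn C57BL/6 pups and drawn into a glass micropipette after imaging. The cells had been grouped by the shape of the calcium signal: 6 S-type cells with a sustained signal, 6 T-type cells with a transient one, 5 M-type cells with a mixed one and 5 cells without a response (NR). NR cells had received EtOH as well, and cells of every type shared the dye Fluo-4, a day without serum and a final application of ATP, so no group was free of EtOH. Neither the labels nor the study's methods name the pup or culture of a cell. Each type was therefore treated as 1 sample, cells were not taken as replicates, and no test between types was made.

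TRP channels are tetrameric cation channels of the plasma membrane and of intracellular membranes, most of which let calcium through. Canonical (TRPC) channels open downstream of phospholipase C and store release, vanilloid (TRPV) channels respond to heat, stretch or cell swelling, and melastatin (TRPM) channels serve magnesium and calcium entry or, for TRPM4, are opened by calcium and pass sodium. Polycystin-1, encoded by Pkd1, is a large membrane protein that joins polycystin-2, the channel encoded by Pkd2 in the TRP superfamily, at the primary cilium. In astrocytes, TRP channels are known as routes of calcium entry during swelling and after emptying of stores, beside release from the endoplasmic reticulum.

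Total counts ran from 2937786 to 19279519 in T-type, from 12229280 to 16254761 in S-type, from 19030121 to 22131076 in M-type and from 15057892 to 19930655 in NR cells. Counts were divided by the size factor of the cell, the median ratio of its counts to the geometric mean over 3670 genes with a read in every cell, and a level below is the mean of these normalized counts over the cells of a type. T-type cells 2 and 3 stood apart, with size factors of 0.276 and 0.183 against 0.548 to 1.56 in the other T-type cells and 0.923 to 2.31 in the remaining types. T-type cell 2 also had the fewest genes with a read, 6319 of the 17479 read in any cell, and the values of the channel genes and lists that rest on these cells are also given without them. All 10 astrocyte markers had reads, 8 of them in every cell, and their summed level lay between 13541 and 208936. Of the microglial markers 10 of 10 had a read somewhere, and their summed level was at most 3.05 in S-type and 11.9 in M-type cells, lay between 12.1 and 546 in NR cells and had a median of 35.0 in T-type cells. The endothelial genes Cldn5 and Cdh5, the oligodendrocyte gene Sox10, the neuronal gene Slc17a7 and the mural gene Rgs5 had no read in any cell. Other genes of the mural and fibroblast list were read in every type, with a summed level of 324 to 103138 over all cells, Acta2 in each of them. Summed levels over all cells reached from 500 to 53351 for the oligodendrocyte lineage list, from 0 to 31629 for the neuron list and from 0 to 2499 for the endothelium list. The part of these other genes in the results on the channels was not tested.

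Sequence upstream of the start sites was compared with detection, since 3 of the channel genes were read in every cell and 6 were not. Windows of 250 bases before the transcription start were taken from the RefSeq promoter table (GRCm38.p6), which held 8 of the 9 genes. The windows shown are those of Trpm7 and Pkd2, read in all 22 cells, and of Trpv4 and Trpv2, read in 3 and 4 cells. They are written 5′ to 3′ on the strand of the gene, with each CG dinucleotide (CpG, the same on both strands) in capitals.
Trpm7 (chr2:126876262-126876511, minus strand): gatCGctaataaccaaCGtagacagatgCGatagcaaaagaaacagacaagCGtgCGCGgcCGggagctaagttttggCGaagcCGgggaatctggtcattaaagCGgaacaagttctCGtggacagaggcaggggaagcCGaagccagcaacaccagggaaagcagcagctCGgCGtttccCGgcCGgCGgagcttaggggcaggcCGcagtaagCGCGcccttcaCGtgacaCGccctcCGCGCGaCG
Pkd2 (chr5:104459207-104459456, plus strand): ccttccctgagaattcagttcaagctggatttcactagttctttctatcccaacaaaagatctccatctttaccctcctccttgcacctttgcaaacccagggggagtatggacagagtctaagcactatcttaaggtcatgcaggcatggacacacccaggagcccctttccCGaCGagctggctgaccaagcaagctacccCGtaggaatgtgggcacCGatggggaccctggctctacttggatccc
Trpv4 (chr5:114658422-114658671, minus strand): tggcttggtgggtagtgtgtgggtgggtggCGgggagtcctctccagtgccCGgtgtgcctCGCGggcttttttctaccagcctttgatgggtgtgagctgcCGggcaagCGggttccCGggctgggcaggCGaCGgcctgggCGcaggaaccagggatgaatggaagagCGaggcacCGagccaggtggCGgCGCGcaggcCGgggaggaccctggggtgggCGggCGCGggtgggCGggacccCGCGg
Trpv2 (chr11:62574236-62574485, plus strand, the first of 3 listed starts): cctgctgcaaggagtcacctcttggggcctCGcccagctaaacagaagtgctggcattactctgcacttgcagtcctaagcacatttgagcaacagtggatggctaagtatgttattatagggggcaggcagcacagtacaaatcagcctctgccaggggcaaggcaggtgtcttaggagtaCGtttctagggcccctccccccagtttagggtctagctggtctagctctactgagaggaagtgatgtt
Trpm7 had 26 CpG, a number reached by 9.59% of all 32851 windows of this length, and Trpv4 had 22, reached by 14.8%. Pkd2 had 4 CpG, at or below which lay 44.4% of the windows, and Trpv2 had 2, at or below which lay 29.0%. The median window held 6. Windows with more and with fewer CpG than the median thus both occurred among the genes read in every cell and among those read in few. Of these, Pkd2 lay near the median. CpG after the listed start were not counted, and nothing was tested on 8 genes.

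Detection split the family. Trpm7, Pkd1 and Pkd2 had reads in 22 of 22 cells, and after random thinning of every cell to 2937786 reads, the smallest library, they still had reads in 21, 22 and 22 cells. Trpm3, a steroid- and heat-sensitive channel, was read in 10 cells, Trpm4 in 8, Trpc1 in 5, Trpv2 in 4, Trpv4 in 3 and Trpc6 in 2. Thinned to equal total counts in 1 random draw, they were read in 7, 6, 5, 3, 1 and 1 cells. Trpc1 kept its number, with a cell that had only 1 read of it included, so another draw could give fewer cells. The 3 genes read in every cell held 95.7% of the 143624 reads of the family. For the other 6 genes, 32 of 132 pairs of gene and cell had a read, and in 12 of the 32 this was 1 to 4 reads. Asking for a read in 5 cells or more left 6 of the 9 genes, without Trpc6, Trpv2 and Trpv4.

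**Figure D1:**
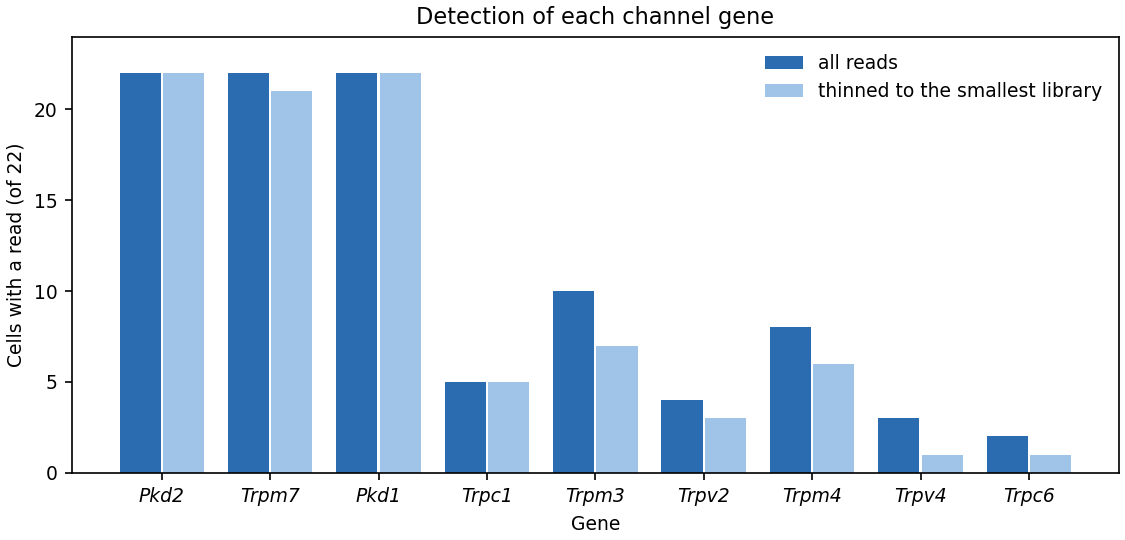
Number of the 22 cells with at least 1 read of each channel gene (vertical axis), with all reads (dark bars) and after thinning each cell to 2937786 reads (light bars). Pkd2, Trpm7 and Pkd1 were read in all 22 cells at full depth, and no other gene in more than 10.

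**Figure D2:**
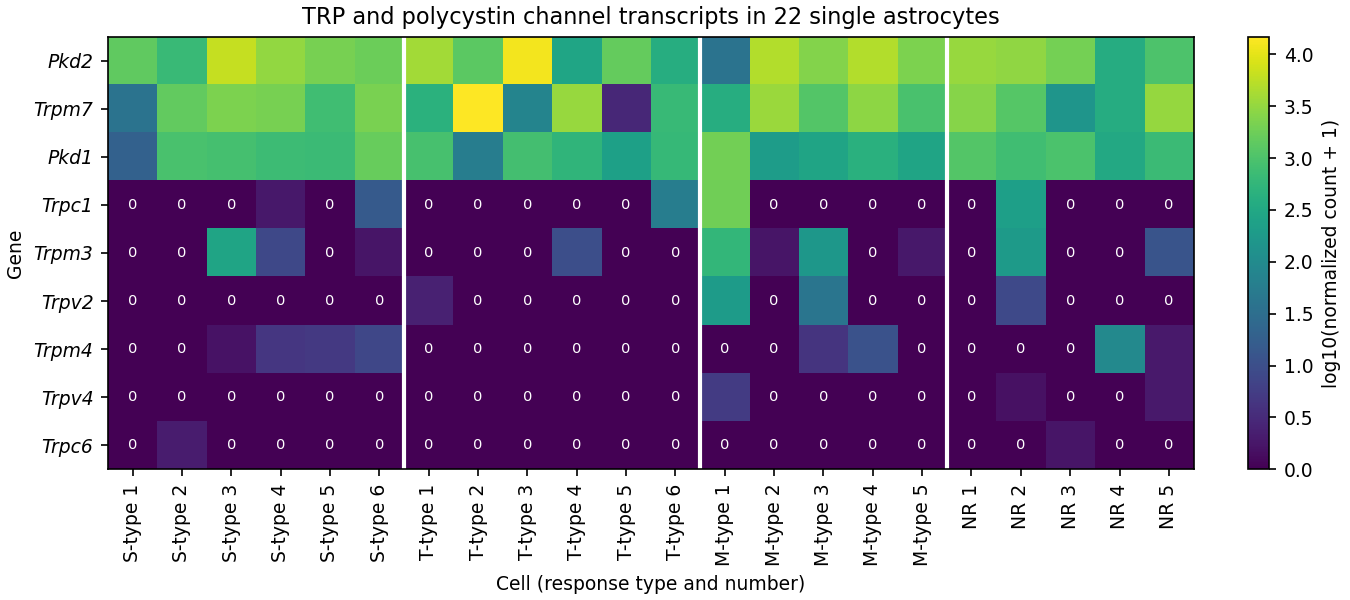
Normalized counts of the 9 genes (rows, ordered by mean level) in the 22 cells (columns), as log10 of the normalized count plus 1, with 0 marking a gene without a read. The 3 upper rows are filled in every cell, and M-type cell 1 and NR cell 2 each hold reads of 7 of the 9 genes.

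Per kilobase of merged exons, averaged over the 22 cells, Pkd2 had the highest level of normalized counts, 266, followed by Trpm7 with 179 and Pkd1 with 39.3. The other 6 genes lay at 12.3 for Trpc1, 2.50 for Trpv2, 2.30 for Trpm3, 0.507 for Trpm4, 0.0655 for Trpv4 and 0.0162 for Trpc6. Divided by the longest transcript instead, Trpv2 was at 3.06 and Trpm3 at 4.56, so these changed places. Single cells held much of such levels. M-type cell 1 had 86.3% of the sum of Trpc1, 79.7% of Trpv2, 74.6% of Trpv4 and 47.2% of Trpm3, and NR cell 4 had 75.7% of Trpm4. Among the 12719 genes past the filter, 91.1% had a level at or below that of Pkd2, 88.0% at or below Trpm7 and 70.4% at or below Pkd1, against 33.0% for Trpc1, 24.7% for Trpm3 and 6.12% for Trpm4. These percentages use normalized counts not divided by length.

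Pkd2 (chr5:104459450-104505819, plus strand, GRCm38 with GENCODE vM21) had a level of 3291 ± 4609 in T-type (SD over 6 cells), 2567 ± 2022 in S-type (6 cells), 2926 ± 2055 in M-type (5 cells) and 1955 ± 1283 in NR (5 cells). The lowest, median and highest S-type cells had normalized counts of 670, 1908 and 6354, and the T-type cells 279, 1431 and 12316. M-type cells 1 to 5 had 37.5, 4845, 2504, 4984 and 2258. NR cells 1 to 5 had 3406, 3012, 1960, 380 and 1017. With size factors all 4 types overlapped, and each difference between neighbours in the order T-type, M-type, S-type and NR was smaller than the larger SD of the pair. The highest T-type value was that of cell 3, which held 62.4% of the T-type sum, and without it the T-type level was 1486, below the other 3 types. As mean counts per 1000000 reads (CPM), which do not use size factors, Pkd2 was at 193 in T-type, 239 in S-type, 267 in M-type and 171 in NR, so T-type was then not the highest. M-type cell 1 had the lowest Pkd2 of all 22 cells while the other M-type cells lay between 2258 and 4984.

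Trpm7 (chr2:126791565-126876230, minus strand), a channel with a kinase domain that carries magnesium, zinc and calcium, had a level of 3221 ± 5813 in T-type, 1463 ± 893 in S-type, 1774 ± 1342 in M-type and 1512 ± 1363 in NR. Normalized counts in S-type ran from 37.3 over a median of 1767 to 2245, and in T-type from 1.94 over 552 to 14815. The M-type cells had 391, 3472, 1151, 2921 and 935. The NR cells had 2567, 1198, 148, 379 and 3267. T-type thus had both the highest mean and the lowest median of the 4 types. T-type cell 2 held 76.7% of the T-type sum, and without it the T-type level was 903, the lowest of the types. On the CPM scale the mean was 114 in T-type, 130 in S-type, 157 in M-type and 116 in NR. T-type cell 2 was at 325 CPM, still the highest cell, against 227 for the highest S-type cell. The higher T-type mean of Trpm7 was therefore present with size factors and absent with CPM. With mean CPM the median log2 ratio of all genes was -0.46 for T-type against S-type and -0.46 against NR. With size factors these medians were -0.09 and -0.07.

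**Figure D3:**
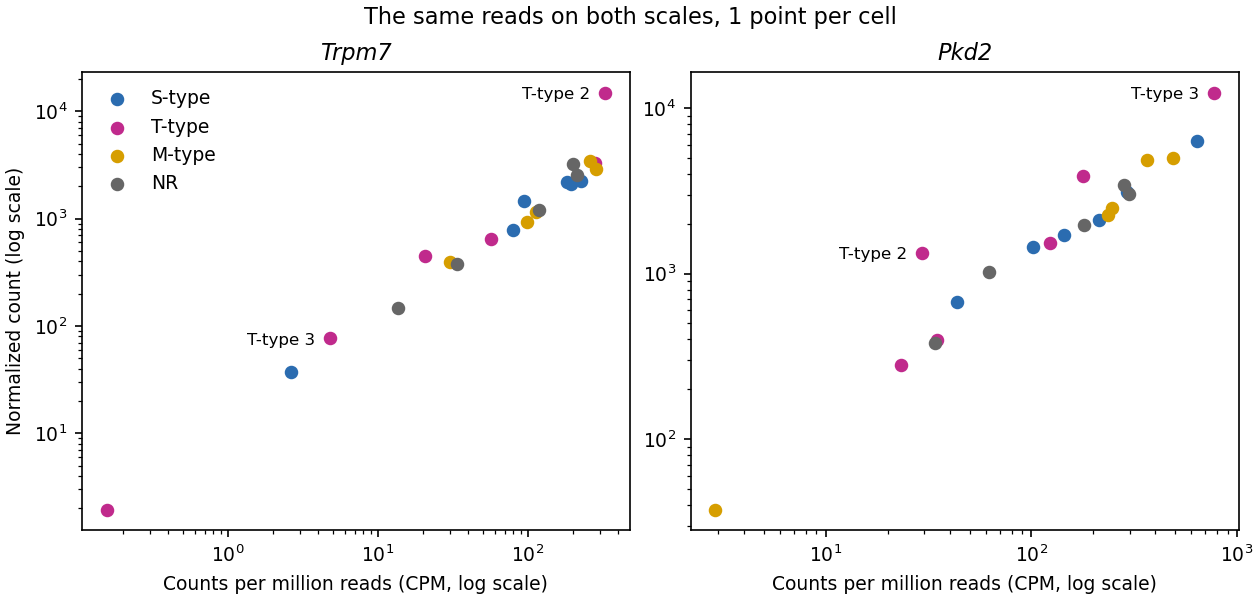
CPM (horizontal, log scale) against normalized count (vertical, log scale) of Trpm7 and Pkd2, 1 point per cell and 1 colour per type, with T-type cells 2 and 3 named. Most cells follow 1 line and T-type cell 2 lies furthest above it, so that its Trpm7 of 325 CPM becomes a normalized count of 14815. T-type cell 1 (15555483 reads, size factor 0.710) lies above it by less. The low size factor of T-type cell 3 stood beside the smallest library, 2937786 reads, and that of T-type cell 2 beside 12564138 reads.

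Pkd1 (chr17:24549834-24596508, plus strand) had a level of 531 ± 334 in T-type, 806 ± 508 in S-type, 620 ± 732 in M-type and 785 ± 310 in NR. The S-type cells had a lowest, median and highest normalized count of 18.6, 792 and 1596, and the T-type cells 58.0, 576 and 909. M-type cells 1 to 5 had 1919, 201, 273, 439 and 268, so that cell 1 was above every other cell of the study, and without it the M-type level was 295. NR cells had 1151, 783, 975, 332 and 686. The types overlapped, and neighbours in the order S-type, NR, M-type and T-type differed by less than the larger SD. Of the merged exon bases of Pkd1, 693 (3.98%) are shared with Tsc2 on the opposite strand, which had 3410 reads in all. Whether the counting used the strand is not given in the sources used here, so reads in those bases cannot be assigned with certainty to Pkd1.

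**Figure D4:**
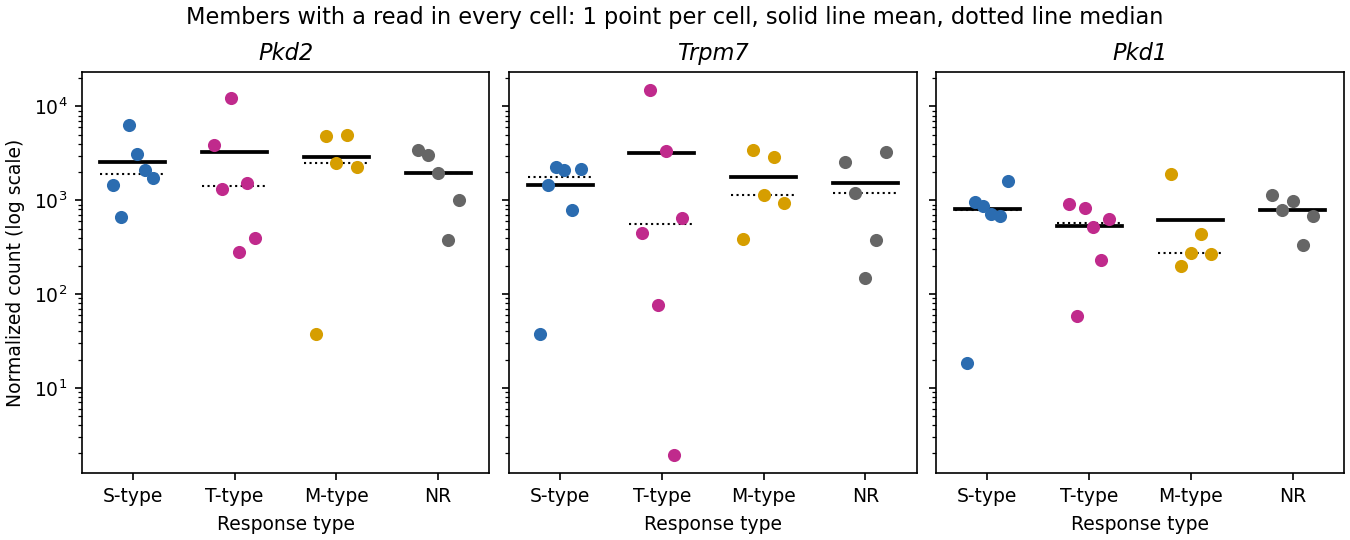
Normalized counts (log scale) of Pkd2, Trpm7 and Pkd1 in each cell, by response type, with the mean as a solid and the median as a dotted line. Cells of all 4 types overlap for each gene, and for T-type the mean lies above the median for Pkd2 (3291 against 1431) and Trpm7 (3221 against 552).

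The 3 genes did not rank the cells alike. Over the 22 cells, Spearman's rho of normalized counts was -0.05 between Trpm7 and Pkd1, 0.12 between Trpm7 and Pkd2 and 0.07 between Pkd1 and its channel partner Pkd2, where the points share the size factor of the cell. Among 10490 other genes, each read in at least 11 cells and at a level of 10 or more, those ranked most like Pkd2 were Rhoq (rho = 0.81), Brat1 (0.78) and Ubr1 (0.77). For Trpm7 they were Fam84a (0.79), Tfcp2l1 (0.76) and C1qtnf1 (0.74). Ilvbl (0.77) and Erlec1 (0.73) were among those most like Pkd1. They were the extremes of 10490 coefficients over 22 cells, whose 99th percentile was 0.54 to 0.58.

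Reads of the 6 genes not found in every cell were concentrated in M-type cell 1 and NR cell 2. M-type cell 1 held 68.4% of their 6214 reads, and both cells together held 80.3%. NR cell 2 also had the most genes with a read of any cell, 13070, against a median of 10852.5 over all cells. M-type cell 1 had 9272 genes with a read, the fewest of the M-type cells. The part of the number of genes read per cell in these channel reads was not tested. Trpc1 (chr9:95705082-95750375, minus strand), a subunit of store- and receptor-operated channels, had 2995 reads in M-type cell 1 (normalized count 1874), 397 in NR cell 2 (225), 89 in T-type cell 6 (57.0), 19 in S-type cell 6 (14.1) and 1 in S-type cell 4 (0.876). In the other 17 cells it had none. M-type cell 1 alone made up 86.3% of its level summed over all cells, and the other 4 M-type cells had no read.

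Trpv2 (chr11:62574486-62600515, plus strand), a channel opened by strong heat and by membrane stretch, had 315 reads in M-type cell 1, 88 in M-type cell 3, 13 in NR cell 2 and 1 in T-type cell 1. Its normalized counts there were 197, 41.3, 7.37 and 1.41. No S-type cell had a read, and a limit of 0.402 stood for the level of that type. Trpv4 (chr5:114622152-114658421, minus strand), the channel opened by cell swelling, had 7 reads in M-type cell 1 and 1 each in NR cells 2 and 5. It had none in S-type and T-type, where the limits were 0.402 and 0.622. These limits are 3 reads divided by the summed size factors of the cells of a type, and cover counting error only. A level is instead a plain mean over cells. Reads in a cell with a low size factor, such as T-type cell 3, could therefore put a level above the limit.

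Trpm3 (chr19:22139046-22995410, plus strand) was the most widely read of this group. Its reads were 446 in S-type cell 3, 8 in S-type cell 4, 1 in S-type cell 6, 5 in T-type cell 4, 931, 1, 346 and 2 in M-type cells 1, 2, 3 and 5, and 333 and 12 in NR cells 2 and 5. Its levels fell in the order M-type (149 ± 252), S-type (46.6 ± 110), NR (40.0 ± 83.4) and T-type (1.52 ± 3.72), and every neighbouring pair in that order differed by less than the larger SD. All 4 cells above 100 normalized counts belonged to S-type, M-type or NR, and T-type had only 5 reads of the gene. Antisense transcripts Gm27151 and C330002G04Rik share 277 and 351 of its exon bases, and neither is in the count table.

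Shared cells differed between pairs of these genes. Of the 5 cells with Trpc1, 4 had Trpm3 and 2 had Trpv2, and all 3 cells with Trpv4 had Trpm3, which was itself in 10 of the 22. Trpm4 shared 1 cell each with Trpv2 and Trpv4, and Trpc6 shared 0 cells with any of the other 5 genes. M-type cell 1 was the highest of the 22 cells for Trpc1, Trpv2, Trpv4, Trpm3 and Pkd1 and the lowest for Pkd2. Among the markers, M-type cell 1 had the lowest astrocyte sum of its type, 13584, beside a mural and fibroblast sum of 18493 and a microglial sum of 11.9. NR cell 2 had an astrocyte sum of 85555, a mural and fibroblast sum of 7979 and a microglial sum of 488. The part of these markers in the shared reads was not tested.

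Trpm4 (chr7:45302632-45333780, minus strand), the channel opened by calcium that depolarizes the cell with sodium, had a different distribution. Its reads were 1, 4, 5 and 9 in S-type cells 3 to 6, 7 and 20 in M-type cells 3 and 4, and 1 in NR cell 5, and NR cell 4 had a normalized count of 91.5. The 6 T-type cells and M-type cell 1 had none. Levels were 2.45 ± 2.70 in S-type, 2.73 ± 4.50 in M-type and 18.5 ± 40.8 in NR, the last being 0.232 without NR cell 4. Among all cells, NR cell 4 had the lowest astrocyte sum, 13541, and the highest microglial sum, 546. Its mural and fibroblast sum was 16210. The part of these markers in its Trpm4 reads was not tested. Trpc6 (chr9:8544142-8680741, plus strand), a receptor-operated channel opened by diacylglycerol, had 1 read in S-type cell 2 and 1 in NR cell 3 and no read elsewhere.

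Levels of the types were then set against each other, with a ratio called when it was at least 2-fold, a log2 ratio of at least 1 or at most -1. In T-type versus S-type, which asks what distinguishes a transient from a sustained response, 2 of the 6 genes past the filter were higher, 2 lower and 2 within 2-fold, where 25.7% of 12517 genes were higher and 32.5% lower. The median log2 ratio was -0.12 for the 6 genes and -0.09 for all genes. Trpc1 was higher in T-type (log2 ratio 1.93, 95% interval 1.22 to 2.71), from 89 reads of 1 T-type cell against 20 reads of 2 S-type cells. Without T-type cell 6, the only one of its type with a read, the ratio formed with the 3-read limit was -1.44, and it was 5.76 without S-type cell 6. Trpm7 was higher as well (1.14, interval 1.10 to 1.18), and it was -0.70 without T-type cell 2 and -0.40 without T-type cells 2 and 3. With TMM factors, another scaling, it was within 2-fold (0.73), and as mean CPM it was at -0.18, where the median of all genes moved to -0.46. Trpm3 was lower (-4.94, interval -6.57 to -3.70) but at -0.03 without S-type cell 3. With the 3-read limit standing in for T-type, Trpm4 was 3.94-fold below S-type, which is not a strict bound on the ratio of levels. Its log2 value of -1.98 became -1.37 without S-type cell 6. Pkd1 was at -0.60, and at -0.98 as mean CPM and -1.11 as CPM of the pooled reads. Pkd2 was at 0.36, and at -0.79 without T-type cell 3, -0.31 as mean CPM and -1.09 as CPM of the pooled reads. The median of all genes moved to -0.56 as CPM of the pooled reads. The intervals come from the exact binomial split of the reads and hold counting error only, and since reads were amplified without molecular identifiers they are narrower than the error between cells.

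Against NR, the same 5 NR cells served for the 3 responding types. In T-type, 1 of the 6 genes was higher and 3 were lower, where 28.4% of 12508 genes were higher and 32.8% lower, and the medians were -1.41 for the 6 genes and -0.07 for all genes. The gene higher was Trpm7 (1.09, with 0.60 under TMM factors, -0.74 without T-type cell 2 and -0.45 without T-type cells 2 and 3). Lower were Trpm3 (-4.72, and -0.87 without NR cell 2) and Trpc1 (-2.25, and 4.20 without NR cell 2, when no NR cell had a read and the 3-read limit stood in). Trpm4 was lower too, 29.7-fold with the 3-read limit for T-type, a value that rests on NR cell 4. Too few reads were left for a Trpm4 ratio when that cell was left out. Without NR cell 4 only 2 genes were called in place of 4. Pkd1 (-0.57) and Pkd2 (0.75) were within 2-fold, and Pkd2 was at -0.40 without T-type cell 3. As CPM of the pooled reads Pkd1 was at -1.03 and Pkd2 at -0.59, where the median of all genes moved to -0.54.

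In S-type versus NR, none of the 6 genes was higher and 2 were lower, where 25.1% of 12621 genes were higher and 22.5% lower. Trpc1 had a log2 ratio of -4.17 and, against the 3-read limit, 2.27 without NR cell 2, and Trpm4 one of -2.91 and 3.40 without NR cell 4. Trpm7 (-0.05), Pkd1 (0.04) and Pkd2 (0.39) were close to equal, and Trpm3 was at 0.22, with -4.69 without S-type cell 3 and 4.07 without NR cell 2. The medians were -0.01 for the 6 genes and 0.03 for all genes.

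In M-type versus NR, 2 of the 6 genes were higher and 1 was lower, where 19.8% of 12616 genes were higher and 28.1% lower, with medians of 0.41 and -0.20. Trpc1 (3.06) and Trpm3 (1.90) were higher, and M-type cell 1 held 100% and 78.1% of their M-type sums. Without it no M-type cell had a Trpc1 read, which put the ratio at the 3-read limit of -6.87, and Trpm3 was at 0.03. Without both M-type cell 1 and NR cell 2, Trpm3 was at 3.88, Pkd2 at 1.11 and Pkd1 at -1.41. This Trpm3 value rested almost wholly on M-type cell 3, with NR cell 5 the only NR cell left that had its reads. Trpm4 was lower (-2.76, and 3.56 without NR cell 4). Trpm7 (0.23), Pkd1 (-0.34) and Pkd2 (0.58) were within 2-fold. Below the filter, Trpv2 had a log2 ratio of 5.01 (interval 4.22 to 5.94), which was 2.81 without M-type cell 1 and 4.31 without M-type cell 1 and NR cell 2, with M-type cell 3 then the only one that had its reads. Trpv4, with 7 reads against 2, had a ratio of 1.55 (interval -0.84 to 4.85).

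For none of the 9 genes were the cells of the types in a comparison apart from each other. Cells did not overlap for 0.783% of all genes in T-type versus S-type, 1.01% in T-type versus NR, 0.412% in S-type versus NR and 0.602% in M-type versus NR. Against the shares of all genes called, the counts in either direction, 0 to 3 of 6 genes, were not read as a property of the family.

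**Figure D5:**
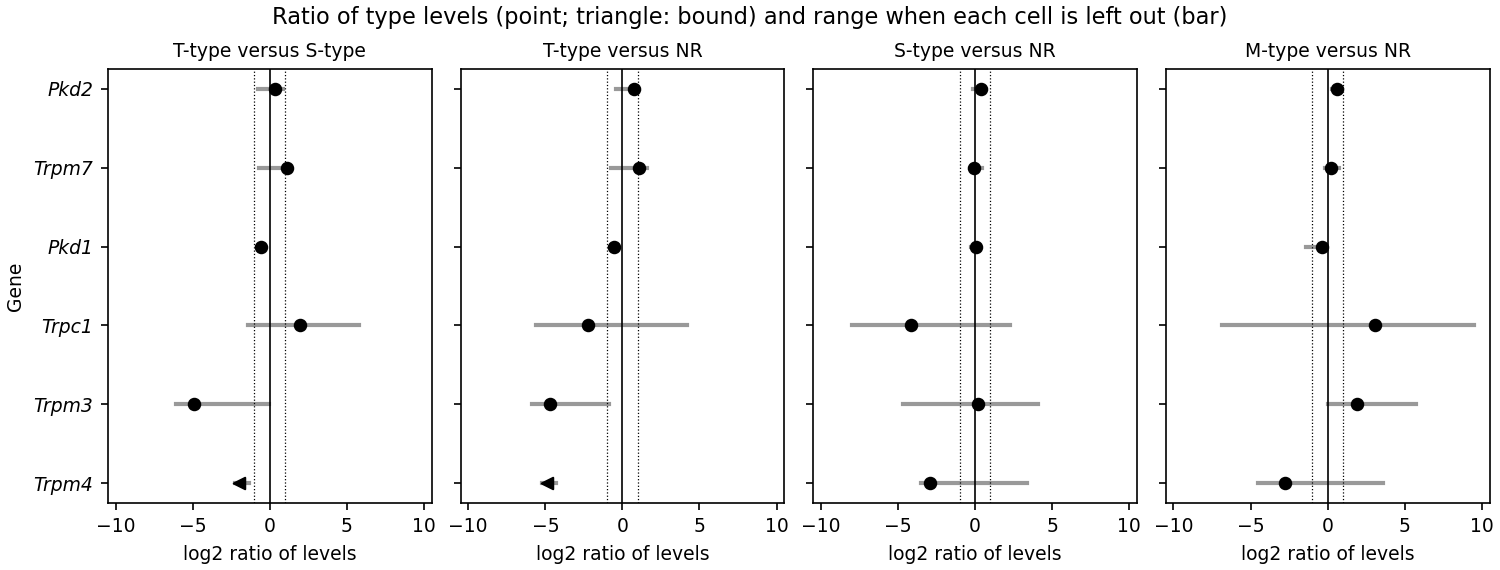
Log2 ratio of the levels of 6 genes in each comparison (points, triangles for a bound against a type without reads) and the range when each cell is left out in turn (bars), with dotted lines at 2-fold. Bars cross 0 for Trpc1 and Trpm7 in all 4 comparisons (Trpm7 from -0.70 to 1.40 for T-type against S-type), for Pkd2 in all but M-type versus NR, for Trpm4 in S-type and M-type versus NR, and for Trpm3 and Pkd1 in S-type versus NR. The Trpm4 bar of T-type versus NR does not include leaving out NR cell 4, when too few reads were left for a ratio.

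Other TRP and polycystin genes were mostly read in few cells. Of 24 listed by symbol, 23 were in the count table, 14 had a read and 7 passed the filter. Mcoln1, the lysosomal channel mucolipin-1, was read in 21 of 22 cells with levels of 356 in T-type, 254 in S-type, 133 in M-type and 127 in NR. Trpm6, the closest relative of Trpm7, was read in 12 cells and had 1449 of its normalized counts in M-type cell 2. Trpm1 was read in 9 cells with levels of 136 in T-type, 68.2 in S-type, 69.5 in M-type and 0.340 in NR, the last from 3 reads of 1 cell. Its highest cell set each level, which was 13.9 without T-type cell 5, 23.3 without S-type cell 2 and 0.108 without M-type cell 2. Pkd2l2 had 911 reads in 9 cells and Trpc2 had 74 in 6. The heat channel Trpv1 and 8 more had no read in any cell. Of the genes of this list with a ratio, 1 of 7 was higher and 3 lower in T-type versus S-type, 3 of 7 higher and 3 lower in T-type versus NR, 3 of 6 higher and 1 of 6 lower in S-type versus NR, and 4 of 7 higher and 2 lower in M-type versus NR. The shares of all genes called in the same comparisons, in the order of higher and lower, were 25.7% and 32.5%, 28.4% and 32.8%, 25.1% and 22.5%, and 19.8% and 28.1%. Without T-type cells 2 and 3, 2 were higher and 3 lower against S-type and 4 higher and 3 lower against NR. With all cells, Pkd1l3 was the 1 gene higher in T-type versus S-type, and was among those higher against NR in T-type and M-type. It had 4 reads against 1 in each of these, with intervals of -0.53 to 8.42, -0.51 to 8.45 and -1.88 to 7.08 that spanned both signs.

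Partners and regulators of the channels were read more widely, with 14 of 15 past the filter. Itpr1, the endoplasmic reticulum receptor that releases stored calcium and with which polycystin-2 and TRPC channels associate, had levels of 654 in T-type, 2182 in S-type, 1526 in M-type and 2808 in NR, with log2 ratios of -1.74 in T-type versus S-type and -2.10 in T-type versus NR. Its T-type cells had a median normalized count of 24.2 and a highest of 2776, within the range of the S-type cells, 483 to 4824. Without T-type cell 3, which held 70.8% of it, the T-type level was 230. The water channel Aqp4, which acts with TRPV4 in swelling, had levels of 5551 in T-type (2199 without T-type cell 3), 5787 in S-type, 7090 in M-type and 9217 in NR. Cav1, the caveolar scaffold of TRPC1, had 993, 2068, 1613 and 801 in the same order, and 327 without T-type cell 6 and 712 without S-type cell 5. Over the list, 2 of 14 genes were higher and 7 lower in T-type versus S-type, 3 of 13 higher and 5 of 13 lower in T-type versus NR, 3 of 14 higher and 2 of 14 lower in S-type versus NR, and 4 of 14 higher and 3 lower in M-type versus NR, beside all-gene shares for higher and lower of 25.7% and 32.5%, 28.4% and 32.8%, 25.1% and 22.5%, and 19.8% and 28.1%. Without T-type cells 2 and 3, 2 were higher and 8 lower against S-type and 2 higher and 7 lower against NR. The medians of the list were -0.86, -0.42, -0.07 and -0.12 in these comparisons, against -0.09, -0.07, 0.03 and -0.20 for all genes.

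Genes of the primary cilium, where polycystins act, passed the filter in 10 of 10 cases. Kif3a, a subunit of the kinesin that moves cargo along the cilium, had levels of 3185 in T-type, 1850 in S-type, 1882 in M-type and 857 in NR, its T-type level led by cell 2 with 15159 and at 790 without it, below that of NR. Its partner subunit Kif3b had 3493, 1781, 1575 and 912, and Ift20, a carrier of membrane proteins to the cilium, had 889, 517, 537 and 457, in the same order. Log2 ratios of T-type versus NR were 1.89, 1.94 and 0.96 for the 3 genes, and -0.19, 0.70 and 1.52 without T-type cells 2 and 3. In the whole list, 1 of 10 genes was higher and 3 lower in T-type versus S-type, 3 higher and 3 lower when T-type was set against NR, 2 higher and 4 lower for S-type, and 2 higher and 2 lower for M-type, with list medians of 0.02, 0.58, 0.09 and -0.07 against all-gene medians of -0.09, -0.07, 0.03 and -0.20. Of all genes, 25.7% were higher and 32.5% lower in the first, 28.4% and 32.8% in the second, 25.1% and 22.5% in the third and 19.8% and 28.1% in the last of these comparisons. Without T-type cells 2 and 3, 2 of the 10 genes were higher and 3 lower both against S-type and against NR.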

How the data were processed

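Each library was the RNA of 1 mouse astrocyte. Per the study's methods the authors amplified its antisense RNA in 2 rounds, sequenced paired reads from stranded libraries, trimmed them, aligned them with STAR to GRCm38 and assigned uniquely aligned reads to exons with VERSE. Versions and the use of strand in counting are not given in the sources used here. The authors deposited raw counts per gene symbol and cell, without molecular identifiers. Total counts were 2937786 to 22131076 per cell, and 95% intervals cover counting error only.

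Size factors, levels, ratios and exact binomial intervals were computed with Python 3.11.15, NumPy 2.4.6, pandas 2.3.3 and SciPy 1.17.1 and drawn with matplotlib 3.10.9. Where a type had no read, 3 reads in all its cells, scaled by the sum of their size factors, stood in for its level. Genes at or under 3 reads in both types had no ratio. Counts of called genes used genes found in 5 or more cells. Positions came from GENCODE vM21 and promoters from RefSeq.

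The members and lists were chosen with earlier results of these data known. All 9 genes, the 6 most read other TRP genes, the 3 most read genes of each further list and the 3 genes most like each leading member were to be named, of which a few are not reported here. Groups came from the sample labels. Each type counted as 1 sample, since no pup or culture is named, so no test or p-value was made. Alternatives were TMM factors (edgeR 4.0.16, R 4.3.3), mean and pooled CPM, thinning, a pseudocount of 1, no filter, a level of at least 10 and leaving out cells. Steps were tested on simulated data with known changes in genes at a level of at least 10. The simulated counts held counting error only, without further spread between cells. That check therefore covers the arithmetic and not ratios that rest on single cells. The calcium recordings and collection times were not used here.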

Additional observations from a re-analysis of the deposited data

Results flagged for a closer look

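Within each type, 42 combinations of gene or library measure and type had a spread, and in 18 of them 1 cell lay far from the others by Dixon's criterion. Chance flags about 1 combination in 20 for normally distributed values, a rate that does not apply to counts that are mostly 0. In 9 of the 18 the cell was the only one of its type with a read, which meets the criterion by construction. All were normalized counts of the channel genes. For Trpc1 they were S-type cell 6 (14.1), T-type cell 6 (57.0), M-type cell 1 (1874) and NR cell 2 (225). For Trpc6 they were S-type cell 2 (1.08) and NR cell 3 (0.719), from 1 read each. M-type cell 1 stood apart from its type for Trpv2 (197), Trpv4 (4.38), Trpm3 (582) and Pkd1 (1919) too. NR cell 2 did so for Trpv2 (7.37) and Trpm3 (189). Trpv2 was also far out in T-type cell 1 (1.41, from 1 read), and Trpm3 in S-type cell 3 (272) and T-type cell 4 (9.12). Trpm4 was far out in NR cell 4 (91.5). Of the genes read in every cell, Trpm7 was far out in T-type cell 2 (14815) and Pkd2 in T-type cell 3 (12316), the cells with the lowest size factors. The part of the scaling in these values was not tested beyond the CPM values, on which T-type cell 2 was at 325 CPM of Trpm7 and T-type cell 3 at 769 CPM of Pkd2.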

How the results depend on the processing

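The number of genes at least 2-fold apart stayed within 1.5 times the value given in 30 of 31 settings that kept all cells or left out a chosen pair, and in 43 of 44 settings that left out 1 cell. The exceptions were M-type versus NR without the filter, with 5 genes in place of 3, and T-type versus NR, where leaving out each cell gave 2 to 5 genes, with 2 without NR cell 4. Of the single log2 ratios, 80 of 158 in the first kind of setting stayed within the 95% counting interval or kept their value. Of the 158, 17 belonged to ratios whose given value used the 3-read limit, which have no interval. The sign changed in 17 of the 158, 7 of them called ratios, and in 28 of 302 when 1 cell was left out, 8 of them called. Trpm7 changed sign in T-type versus S-type with mean CPM (-0.18), thinned cells (-0.17) and CPM of pooled reads (-0.42), and in T-type versus NR with mean CPM (-0.015) and CPM of pooled reads (-0.30). With these CPM scalings the median of all genes lay between -0.46 and -0.56, against -0.09 and -0.07 with size factors. Leaving out T-type cells 2 and 3, chosen after seeing the data, gave -0.40 and -0.45. Of the ratios within 2-fold, Pkd2 changed sign in T-type versus S-type with the same 3 scalings (-0.31, -0.30 and -1.09) and in T-type versus NR with CPM of pooled reads (-0.59).

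Leaving out each cell in turn gave Trpc1 -1.44 to 5.76 and Trpm7 -0.70 to 1.40 in T-type versus S-type. In T-type versus NR the ranges were -5.61 to 4.20 for Trpc1 and -0.74 to 1.59 for Trpm7. In S-type versus NR they were -8.01 to 2.27 for Trpc1 and -3.52 to 3.40 for Trpm4, and in M-type versus NR -6.87 to 9.50 for Trpc1 and -4.49 to 3.56 for Trpm4. The cause was not tested. Leaving out M-type cell 1 with NR cell 2 was also chosen after seeing the data. From 5 reads on, Trpc6 was detected in 0 cells in place of 2. No paired analysis was possible because neither the labels nor the study's methods name the pup or culture of a cell. Sample titles end in numbers, some of which recur in cells of different types and once within a type, but the labels do not say what they mean and they were not used to pair cells. Depth limits the genes with few reads, where 3 reads over a type, scaled by its summed size factors, stood in for a level of 0.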
